A study of Rattus norvegicus with 26 samples.

Results

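miR-103 and miR-107 are a pair of nearly identical miRNAs that are read from introns of the pantothenate kinase genes, which make the first enzyme of coenzyme A synthesis. They were taken from the array as the 2 features named rno-miR-103 and rno-miR-107, without the star of the passenger strands, among 677 rat miRNAs. Liver miRNA was profiled in male Sprague-Dawley rats on 26 single-colour arrays, 1 rat per array, with RNA of the right lobe in every case. The 9 groups were normal livers of rats without partial hepatectomy (PH; 3 arrays), and remnant livers taken 6, 12, 24 or 36 hours after removal of the left lateral lobe (1/3PH; 2 arrays at 6 hours and 3 at each other time) or after the larger classical operation (2/3PH; 3 arrays at each time). The normal rats carry the tag sham in 1 label and are described as unoperated elsewhere, so whether they had a mock operation cannot be told from the sources used here. For some arrays a second label gives a time 1 or 2 hours later than the title, and the titles were followed. The study set 1/3PH beside 2/3PH because the smaller operation removes liver mass with little DNA replication.

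A miRNA guides a silencing complex to messages that pair with its seed, the bases 2 to 8 from the 5′ end. miR-103 and miR-107 are known as negative regulators of insulin sensitivity in liver and fat tissue, in part through caveolin-1, and as miRNAs that change in fatty liver and obesity. They belong to a wider group with miR-15, miR-16 and miR-195, cell cycle inhibitors whose seeds hold almost the same letters shifted by 1 base. miR-103 is also often used as a reference miRNA in PCR because its level varies little between tissues. After PH the remnant liver takes up lipid and changes its insulin and glucose handling before hepatocytes divide.

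The mature sequences below, from RefSeq (build GRCr8), show why the pair is treated together and how it relates to 2 members of the wider group. These 2 passed the test after 2/3PH with all arrays kept, and further members passed when an array was left out, as given below. Each sequence is written 5′ to 3′ with the seed in capitals.
rno-miR-103: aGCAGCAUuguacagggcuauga
rno-miR-107: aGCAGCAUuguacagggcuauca
rno-miR-15b: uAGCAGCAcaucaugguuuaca
rno-miR-195: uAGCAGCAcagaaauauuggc
Counted from the 5′ end of miR-103, the pair differs by G22C and is identical at 22 of 23 bases. Among 693 rat mature miRNAs of the RefSeq table, 2 have the seed GCAGCAU, and they are these. The 6 letters AGCAGC stand within the first 7 bases of 8 of the 693. They open miR-103 and miR-107, and they start at base 2 in miR-15b, miR-16, miR-195, miR-322, miR-497 and miR-503.

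In the same build the hairpin of miR-107 lies on chromosome 1 (start 241750418, end 241750504, minus strand) inside the bounds of Pank1, which is on the same strand. miR-103 has 2 hairpins that hold its mature sequence. One lies on chromosome 3 (start 138963227, end 138963312, plus strand) inside Pank2 and the other on chromosome 10 (start 20748474, end 20748559, plus strand) inside Pank3, again each on the strand of its host. The array reads the mature sequence, so the share of each miR-103 locus in the signal cannot be told apart. The passenger strands miR-103-1*, miR-103-2* and miR-107* were each detected on 0 of 26 arrays by the scanner software's own call.

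Both members were detected on all 26 arrays. Each was read by 2 probes with 10 spots per probe and array. No member spot was saturated (0 of 1040), 66 were marked as outliers, and 58 were not well above background. Of the 260 spots of the dimmer miR-103 probe 204 were well above background, against 260 of 260 for its brighter probe, which carried 83.0 to 87.4% of the miR-103 signal. For miR-107 the counts were 258 of 260 and 260 of 260. Signals are given below as scaled signal in arbitrary units, the spot signal divided by a measure of each array's brightness. Levels of different probes cannot be compared, so that a higher number for miR-107 than for miR-103 does not show that it was the more abundant of the pair. The hepatocyte miRNAs miR-122, miR-192 and miR-194 were detected on every array, as were 4 of 7 endothelial and stellate cell markers, 3 of 6 leukocyte markers, 1 of 3 red cell markers and 1 of 5 biliary markers. The total signal of the arrays ranged from 39149 to 68366 apart from replicate 2 of 1/3PH 12H, which had 12434 and 91 miRNAs detected where the others had 118 to 155. This dim array is kept in the values below. Values without it stand beside some, not all, of the results that changed with it, and were chosen after the data were seen.

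No difference of the pair from normal liver passed the test after either operation, and most arrays of the operated livers gave signals within or close to the normal range. miR-103 in normal liver measured 118.6, 104.1 and 100.2 on the 3 arrays. At 6 hours it was 108.9 and 112.7 after 1/3PH and 107.4, 109.3 and 108.9 after 2/3PH. All 5 operated livers at 6 hours lay inside the range of the normal livers. At 12 hours miR-103 was 110.0, 69.2 and 111.8 after 1/3PH. After 2/3PH at 12 hours it was 103.0, 109.4 and 113.5. The value of 69.2 is that of the dim array, and the other 5 lay within the normal range. At 24 hours miR-103 was 106.3, 117.6 and 107.6 after 1/3PH and 107.1, 102.6 and 105.8 after 2/3PH, and the operations overlapped. At 36 hours it was 117.6, 121.0 and 114.8 after 1/3PH and 101.4, 103.0 and 111.8 after 2/3PH. The operations did not overlap at 36 hours, where all 3 arrays of 1/3PH were above all 3 of 2/3PH, while both sets overlapped the normal livers. At 36 hours the operations shared no slide and no scan day, so operation cannot be told apart from either of these. Of the 144 miRNAs tested, 36.1% had no overlap between the operations at 36 hours.

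miR-107 measured 169.5, 163.4 and 137.1 in normal liver. At 6 hours it was 134.4 and 136.0 after 1/3PH and 162.1, 137.7 and 147.9 after 2/3PH. The 2 arrays of 1/3PH at 6 hours were below every normal liver and below every 2/3PH liver of that time, by under 2 units from the nearest array in both cases. No overlap was seen for 20.8% of the miRNAs tested between 1/3PH 6H and normal liver, and for 18.1% between the operations at 6 hours. At 12 hours miR-107 was 131.7, 100.0 and 145.4 after 1/3PH and 142.2, 154.9 and 152.1 after 2/3PH. The dim array again gave the lowest value of the series, and without it the 12-hour groups still overlapped. At 24 hours miR-107 was 138.9, 155.4 and 139.6 after 1/3PH and 145.0, 138.6 and 129.8 after 2/3PH. At 36 hours it was 139.7, 165.8 and 145.3 after 1/3PH and 170.1, 161.8 and 160.7 after 2/3PH. At both times the operations overlapped each other, and at 36 hours both overlapped the normal livers.

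**Figure D1:**
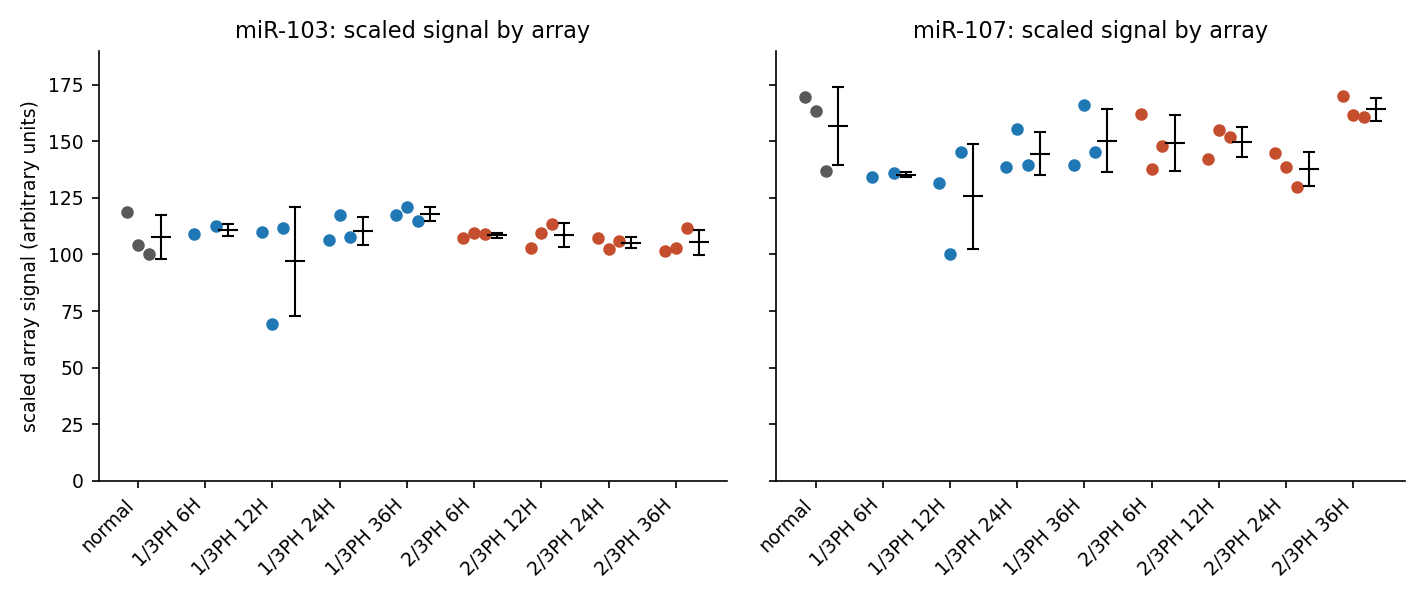
Scaled signal (vertical axis, arbitrary units from 0) of miR-103 (left) and miR-107 (right) in the 9 groups; each point is 1 rat, the bars beside them are mean ± SD, grey is normal liver, blue 1/3PH and red 2/3PH. Points of each miRNA lie in a narrow band apart from replicate 2 of 1/3PH 12H, at 69.2 for miR-103 and 100.0 for miR-107.

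In order of the group mean, miR-103 ran from 117.8 ± 3.09 (SD, n = 3) in 1/3PH 36H down to 97.0 ± 24.1 (SD, n = 3) in 1/3PH 12H, with normal liver sixth at 107.6 ± 9.70 (SD, n = 3). Of the 8 steps between neighbours in this order, only the first, from 1/3PH 36H to 1/3PH 6H, exceeded the larger of the 2 groups' SDs on the log2 scale (a gap of 0.088 against an SD of 0.038). miR-107 ran from 164 ± 5.13 (SD, n = 3) in 2/3PH 36H through normal liver, second at 157 ± 17.3 (SD, n = 3), down to 126 ± 23.3 (SD, n = 3) in 1/3PH 12H. None of its 8 steps exceeded the larger SD. The last place of 1/3PH 12H in both orders rested on the dim array. Without it that group was second for miR-103, at 110.9 ± 1.31 (SD, n = 2), with normal liver seventh, and it was seventh for miR-107, at 138.5 ± 9.69 (SD, n = 2), with normal liver still second.

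The first question of the design is whether either operation moved the pair away from normal liver. In limma's fit of all 26 arrays and 144 miRNAs, neither member passed an adjusted p of 0.05 (Benjamini-Hochberg) against normal liver at any time after either operation. In whole-liver RNA, fewer cells of a type and less of a miRNA per cell cannot be told apart. The share of all tested miRNAs that passed was 0% 6 hours after 1/3PH and 4.17% after 12 hours, with 0.694% after 24 hours and again 0% after 36. For 2/3PH it was 0% (6H), 6.94% (12H), 16.7% (24H) and 18.8% (36H). Without the dim array the share at 12 hours after 1/3PH was again 4.17%, and after 2/3PH it was 3.47% (6H), 7.64% (12H), 22.2% (24H) and 24.3% (36H). The 8 comparisons share the same 3 normal livers, so a high or low normal array moves all of them.

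After 1/3PH, miR-103 was at 1.03-fold of normal (6H), 0.883-fold (12H), 1.03-fold (24H) and 1.10-fold (36H). After 2/3PH it was at 1.01-fold, 1.01-fold, 0.980-fold and 0.981-fold at the same times. The 95% intervals of these 8 folds reached down to 0.729 and up to 1.33, both after 1/3PH, and changes of those sizes could not be told from no change with 2 or 3 arrays per group. For 2/3PH at 36 hours, when miR-103 was at 0.981-fold, the interval was 0.810 to 1.19 (adjusted p = 0.919, limma).

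miR-107 was below normal in 7 of the 8 comparisons. After 1/3PH it was at 0.867-fold (6H), 0.796-fold (12H), 0.926-fold (24H) and 0.961-fold (36H). After 2/3PH it was at 0.954-fold, 0.959-fold, 0.882-fold and 1.05-fold. The value furthest from 1, at 12 hours after 1/3PH, was a log2 difference of -0.33 ± 0.12 (SE) with a 95% interval of 0.666 to 0.951 for the fold (unadjusted p = 0.0147 and adjusted p = 0.101 in limma). Without the dim array it was -0.17 (adjusted p = 0.408), and without replicate 3 of 1/3PH 12H it was -0.44 (adjusted p = 0.0407), the only one of these comparisons that passed when any single array was left out. The directions of miR-107 depended on the scaling: quantile normalization and the deposited values turned the differences at 24 and 36 hours after 1/3PH and at 12 and 24 hours after 2/3PH above 0, and normexp background correction turned the one at 12 hours after 1/3PH to 0.14.

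Slide and scan day were read from the file headers, and 6 slides and 3 scan days were used. Where a slide held both groups, miR-107 was below the normal array of that slide in 7 of 8 slide comparisons, by -0.71 to -0.10 on the log2 scale. The exception was 2/3PH at 36 hours on the slide that also held normal replicate 3, at 0.28. The corresponding differences of miR-103 ran from -0.59 to 0.12, with 4 of 8 below 0. The lowest in both cases is again the dim array. Each of these values rests on 1 normal array, and the values of a slide share it. The 7 of miR-107 below 0 all rest on normal replicates 1 and 2, whose miR-107 signals (169.5 and 163.4) were above that of replicate 3 (137.1). They are therefore not 7 separate comparisons with normal liver. The livers of 1/3PH 36H and of 2/3PH 24H were all on 1 slide without any normal array, so slide and group cannot be told apart there.

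Taken over all 23 operated livers against the 3 normal ones, the log2 difference was -0.00019 for miR-103 (exact permutation test over 2600 regroupings, two-sided, p = 0.998) and -0.11 for miR-107 (p = 0.229, the same exact test). The fold of miR-107 was 0.924. With 1 array left out at a time its difference ran from -0.21 without normal replicate 3 to -0.054 without normal replicate 1. Adjusted over the 5 permutation tests made on the pair, these p-values were 0.998 and 0.381. Over the 144 miRNAs tested the median of the same difference was 0.075, and relative to it miR-103 was at -0.075 and miR-107 at -0.19. Quantile normalization moved the median to -0.020 and normexp background correction to 0.26. Relative to those medians miR-103 was at 0.10 and -0.043, and miR-107 at 0.020 and -0.20.

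**Figure D2:**
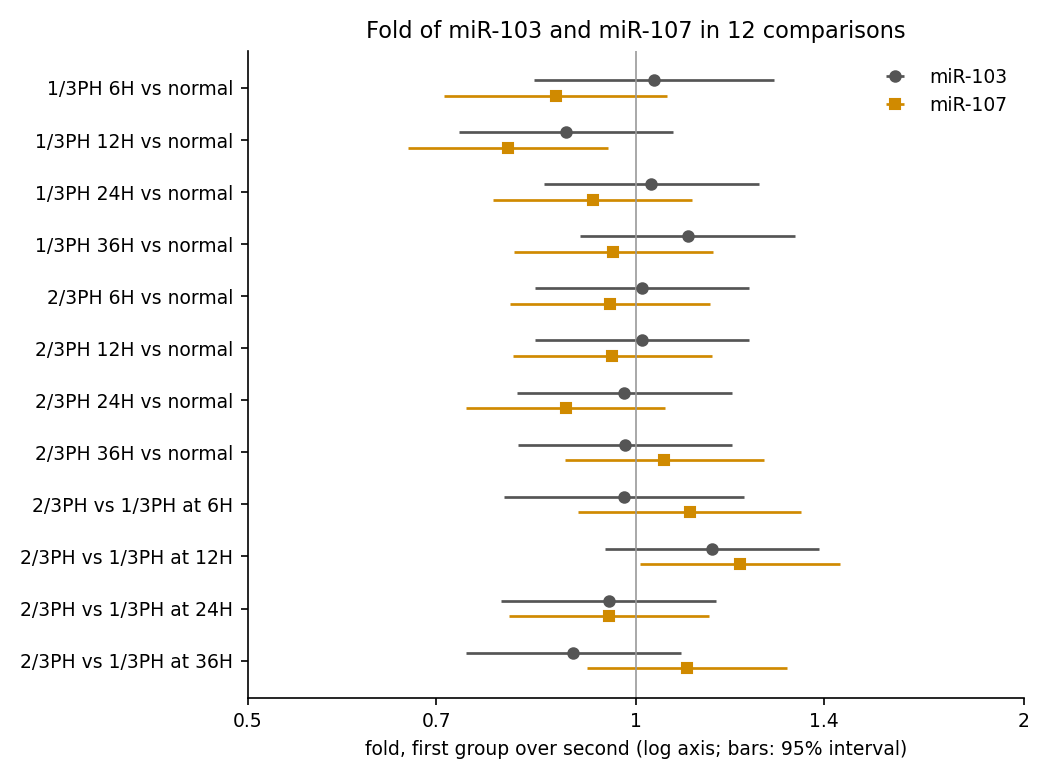
Fold of the first group over the second (horizontal log axis) for miR-103 (grey circles) and miR-107 (orange squares) in 12 comparisons, with limma's 95% intervals as bars. All intervals of miR-103 include 1, and those of miR-107 at 12 hours, 0.666 to 0.951 for 1/3PH against normal and 1.01 to 1.44 for 2/3PH against 1/3PH, lie beside it before adjustment.

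The second question is whether the pair differed between the larger and the smaller operation. Neither member passed the test at any time. The share of all tested miRNAs that passed was 0% for both the 6-hour and the 12-hour comparison, 2.78% for that of 24 hours and 14.6% for that of 36 hours. miR-103 in 2/3PH relative to 1/3PH was at 0.980-fold, 1.15-fold, 0.953-fold and 0.894-fold in order of time. miR-107 was at 1.10-fold, 1.21-fold, 0.953-fold and 1.10-fold. At 36 hours, when 14.6% of miRNAs passed, the interval was 0.738 to 1.08 for miR-103 (adjusted p = 0.475, limma) and 0.917 to 1.31 for miR-107 (adjusted p = 0.516, limma). At 12 hours miR-107 had an unadjusted p of 0.0412 in limma and an adjusted p of 0.613. Without the dim array the 12-hour log2 differences changed from 0.20 to -0.031 for miR-103 and from 0.27 to 0.11 for miR-107. Of the 24 comparisons of 2 groups made for the pair, 2 had an unadjusted p under 0.05 in limma. Both were of miR-107 at 12 hours, and both involved the group that holds the dim array.

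Averaged over the 4 times, with the operations exchanged only within a time, miR-103 differed by -0.016 on the log2 scale between 2/3PH and 1/3PH (exact permutation test over 80000 regroupings, two-sided, p = 0.921, adjusted p = 0.998). miR-107 differed by 0.12, a fold of 1.08 (exact permutation p = 0.0425), and did not pass after adjustment over the 5 tests (adjusted p = 0.106). The mean of miR-107 was higher after 2/3PH at 3 of 4 times and lower at 24 hours. The outcome for miR-107 depended on the scaling. With quantile normalization the difference was 0.14 (exact permutation adjusted p = 0.0248) and with the deposited log2 values 0.21 (exact permutation adjusted p = 0.0146), whereas scaling to the 75th percentile over all probes gave -0.0026. Leaving out replicate 2 of 1/3PH 36H gave 0.14 (exact permutation adjusted p = 0.0478), and leaving out the dim array gave 0.079 (exact permutation adjusted p = 0.123). For miR-103, leaving out the dim array gave -0.073 (exact permutation adjusted p = 0.0186), with all 4 times below 0. At 24 hours the operations shared no slide, and at 36 hours neither a slide nor a scan day. A difference between slides cannot be told from one between operations at these times. Within slides the operations could be compared at 6 and 12 hours. miR-107 was higher after 2/3PH by 0.14 on the slide with both groups at 6 hours, and by 0.030 and 0.60 on the 2 slides at 12 hours, the second of which holds the dim array. miR-103 differed by -0.032, -0.075 and 0.71 on the same slides.

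Whether the difference between the operations changed from 6 to 36 hours was tested as an interaction. It was -0.13 ± 0.20 (SE, log2) for miR-103 (adjusted p = 0.806, limma) and -0.0080 ± 0.18 (SE, log2) for miR-107 (adjusted p = 0.987, limma), where 4.17% of all tested miRNAs passed. A test over all 9 groups at once gave a moderated F of 0.791 for miR-103 (adjusted p = 0.741, limma) and 1.84 for miR-107 (adjusted p = 0.278, limma). By that test 29.9% of the 144 miRNAs differed between groups. Scaling to the 75th percentile over all probes gave F values of 2.64 and 2.65 with adjusted p of 0.0299 and 0.0296 in limma. The share of all miRNAs that passed under that scaling is not given here, so these passes do not single out the pair. Relative to the median of the 144 miRNAs, 2/3PH minus 1/3PH over all times was 0.039 for miR-103 and 0.17 for miR-107 in both scalings. These must be equal, since each scaling multiplies an array by 1 factor. The values were 0.038 and 0.14 after quantile normalization and 0.049 and 0.14 in the deposited values. They were 0.10 and 0.22 for the software's total gene signal and -0.17 and 0.010 after normexp background correction.

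Because the pair shares its seed and nearly all its bases, the difference between its log2 signals within each array was examined as well. It cancels any scaling that multiplies an array by 1 factor. The difference, miR-107 minus miR-103, was 0.54 ± 0.10 (SD, n = 3) in normal liver. It was lowest in 1/3PH 6H, at 0.29 ± 0.023 (SD, n = 2), and in 1/3PH 36H, at 0.35 ± 0.10 (SD, n = 3). It was highest in 2/3PH 36H, at 0.64 ± 0.11 (SD, n = 3). In 1/3PH 6H both arrays were below all normal livers, and at 36 hours the 3 arrays of 2/3PH (0.52 to 0.75) were above the 3 of 1/3PH (0.25 to 0.45). The remaining groups were between 0.39 and 0.46 on average. For single miRNAs, 20.8% of those tested had no overlap between 1/3PH 6H and normal liver, and 36.1% between the operations at 36 hours. Such a share for differences between 2 miRNAs is not given here. A permutation test over the 9 groups with 100000 resamples gave an F ratio of 3.39 (permutation p = 0.0171), which did not pass after adjustment over the 5 tests (adjusted p = 0.0854). It passed without the dim array (F ratio 4.29, permutation adjusted p = 0.0186) and without replicate 2 of 1/3PH 36H (F ratio 3.83, permutation adjusted p = 0.0478).

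At 36 hours the operations shared no slide or scan day, and the same difference also varied with the slide. Its mean was 0.62 on the slide that held normal replicate 3 and replicates 1 and 2 of 2/3PH 36H, and 0.37 to 0.52 on the others. An F ratio over the 6 slides was 2.74 (permutation p = 0.0483). With slide as a block and arrays permuted only within slides, an alternative chosen after the data were seen, the F ratio over groups was 2.36 (permutation p = 0.156). The outcome also depended on how the spots were read. The difference of the pair had an F ratio of 1.75 after quantile normalization (permutation adjusted p = 0.392), 2.09 for the software's total gene signal (permutation adjusted p = 0.226) and 4.19 after normexp background correction (permutation adjusted p = 0.0034). The probe sequences were not used here, and how far each probe binds the other member of the pair was not tested.

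**Figure D3:**
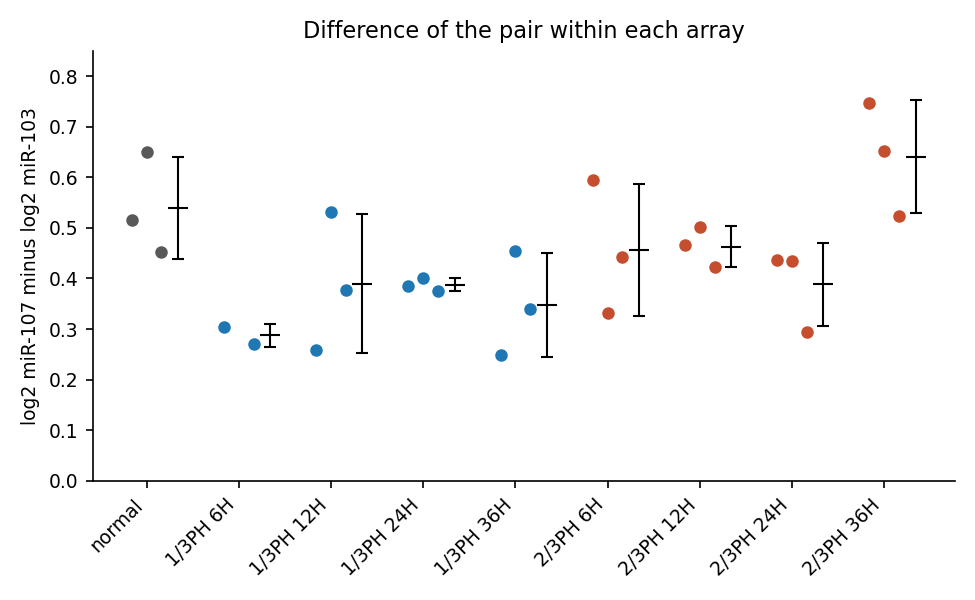
Difference of log2 scaled signal, miR-107 minus miR-103 (vertical axis), on each array by group; points are rats, bars beside them mean ± SD, with normal liver grey, 1/3PH blue and 2/3PH red. The 2 arrays of 1/3PH 6H lie at 0.27 and 0.30 and the 3 of 2/3PH 36H at 0.52 to 0.75, with normal liver at 0.45 to 0.65.

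The spread of the pair over all arrays was small relative to that of other miRNAs. Among the 82 miRNAs detected on every array, the SD of log2 signal over the 26 arrays was 0.15 for miR-103, the eighth lowest, and 0.16 for miR-107, at rank 13 from the lowest, where the median was 0.27 and the highest 1.201. Without the dim array miR-103 had the lowest SD of the 82, at 0.074, and miR-107 was at rank 6 with 0.12. These ranks moved with the processing: over all arrays they were 15 and 11 after quantile normalization, 14 and 15 in the deposited values, and 37 and 25 after normexp background correction. The same settings without the dim array gave 12 and 7, 9 and 14, and 38 and 26. Group membership accounted for 30.3% of the variance of miR-103 and 51.6% of that of miR-107, where the median of the 82 miRNAs was 56.6%. The slide accounted for 22.5% and 11.9% (median 39.6%). These shares are descriptions, and groups and slides overlap in part. With 9 groups or 6 slides over 26 arrays, sizeable shares arise even where groups or slides do not differ.

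**Figure D4:**
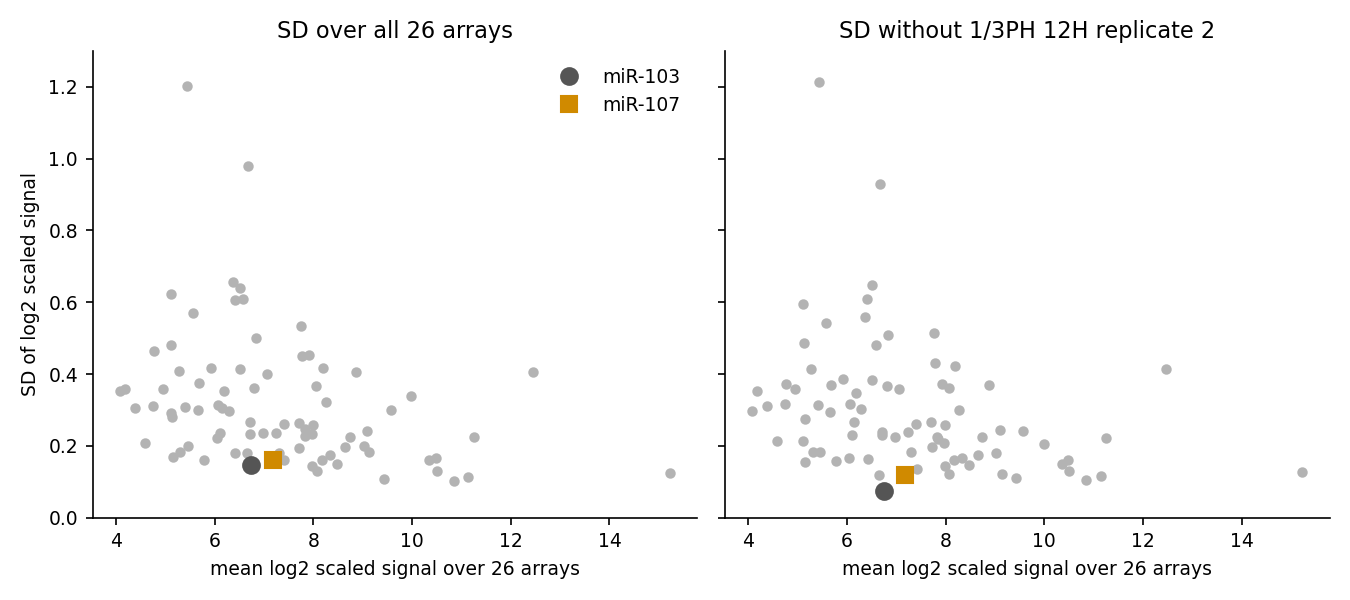
SD of log2 scaled signal over arrays (vertical axis) against mean log2 scaled signal (horizontal axis) for the 82 miRNAs detected on every array, over all 26 arrays (left) and without replicate 2 of 1/3PH 12H (right). miR-103 (dark circle) and miR-107 (orange square) lie near the lower edge, at 0.15 and 0.16 on the left and 0.074 and 0.12 on the right.

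Within the limits of that small spread, the miRNAs most like each member were listed by Pearson's r of log2 signal over the 26 arrays, as a description without a test, since all points share the scaling of their array. For miR-103 they were miR-126 (r = 0.876), an endothelial miRNA, miR-29a (0.791), miR-107 (0.665), miR-99a (0.595) and miR-29c (0.576). For miR-107 they were miR-103 (0.665), miR-202* (0.611), miR-29a (0.598), miR-126 (0.594) and miR-212 (0.571). The median r over the other 81 miRNAs was 0.156 for miR-103 and 0.0804 for miR-107. Much of this likeness rested on the dim array. Without it, miR-126 was still first for miR-103 (r = 0.674), whereas miR-29a fell to 0.305. The pair's own correlation fell to 0.187, rank 33 of 81 for miR-103 and rank 19 of 81 for miR-107. After normexp background correction, over all arrays, miR-103 and miR-126 had an r of -0.211 and the pair an r of 0.767.

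The wider group that shares the letters AGCAGC near the 5′ end gives a background for the pair. Of 10 miRNAs on the list 8 were on the array, and 7 were tested: miR-15b, miR-16, miR-195, miR-322, miR-497 and the pair. miR-503 was detected on 0 arrays. After 1/3PH, 0 of the 7 passed the test against normal liver at any of the 4 times, and none passed at 6 or 12 hours after 2/3PH. At 24 hours after 2/3PH 1 of 7 rose, where 16.7% of all tested miRNAs passed, and at 36 hours 1 rose and 1 fell, where 18.8% passed. The one that rose was miR-15b, a repressor of cyclins, by 0.52 ± 0.14 (SE, log2) at 24 hours (adjusted p = 0.0147, limma) and by 1.34 ± 0.14 (SE, log2) at 36 hours (adjusted p = 1.56e-06, limma). Its scaled signal was 211 to 265 in normal liver, 221 to 238 in 1/3PH 36H and 545 to 623 in 2/3PH 36H. The range of 2/3PH 36H lay above those of the other groups named, which overlapped each other. Between the operations at 36 hours 36.1% of all tested miRNAs had no overlap, and the share for 2/3PH 36H against normal liver is not given here. miR-195, another member with the same seed as miR-15b, fell by 0.66 on the log2 scale at 36 hours after 2/3PH (SE 0.18, adjusted p = 0.0114, limma), from 268 to 423 in normal liver to 219 to 233. Against 1/3PH at 36 hours miR-15b rose by 1.33 (adjusted p = 1.61e-06, limma) and miR-195 fell by 0.54 (adjusted p = 0.0494, limma), in a comparison where 14.6% of all tested miRNAs passed. The operations shared no slide or scan day in that comparison. Without the dim array 4 of the 7 passed at 36 hours after 2/3PH, where 24.3% of all tested miRNAs did. They were miR-15b at 1.335 (adjusted p = 1.12e-06, limma), miR-195 at -0.66 (adjusted p = 0.00294, limma) and, in addition, miR-16 at 0.59 (adjusted p = 0.0112, limma) and miR-497 at -0.44 (adjusted p = 0.0157, limma). The median log2 difference of the 7 at 36 hours after 2/3PH against normal was -0.028, the value of miR-103 itself, beside 0.070 over all 144 miRNAs. In the same comparison the log2 difference was -0.028 ± 0.13 (SE) for miR-103 and 0.073 ± 0.12 (SE) for miR-107.

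Markers of some liver cell types moved in the same comparisons. Among the 3 hepatocyte markers 1 fell at 12 hours after 1/3PH and at 12 and 24 hours after 2/3PH. In these comparisons 4.17%, 6.94% and 16.7% of all tested miRNAs passed. miR-122 was not the marker that passed. In the same order it was at 0.13, 0.12 and -0.094 on the log2 scale (adjusted p = 0.511, 0.645 and 0.671, limma). The group 1/3PH 12H holds the dim array, and the value of the marker that fell is not given here with or without it. None of the 5 endothelial and stellate cell markers tested passed in any comparison, nor did the 1 red cell marker tested. Of the 3 biliary markers tested, 2 rose at 24 hours after 2/3PH, where 16.7% of all tested miRNAs passed. They were miR-200b, by 0.87, and miR-429, by 1.08 on the log2 scale (adjusted p = 0.0436 and 0.0138, limma). At 36 hours, where 18.8% of all tested miRNAs passed, all 3 rose, miR-200a by 0.90, miR-200b by 1.34 and miR-429 by 1.28 (adjusted p = 0.0364, 0.00246 and 0.00389, limma). miR-200c and miR-141, of the same family, were detected on 0 arrays. The summed scaled signal of the 3 was 34.4 to 65.3 in normal liver, 77.7 to 109.5 in 2/3PH 24H and 96.1 to 146.5 in 2/3PH 36H, so both groups lay above normal liver. The sum was also above normal liver in 2/3PH 12H (72.4 to 77.1) and 1/3PH 24H (92.9 to 108.0), where none of the 3 passed. The share of all miRNAs that lay apart from normal liver in these groups is not given here. At 12 hours after 1/3PH it reached 143.4 and was above normal liver on every array, and 2 of the 3 rose, miR-200b by 1.35 and miR-429 by 1.11 (adjusted p = 0.0117 and 0.0333, limma). When the dim array was left out miR-200b alone passed there, at 1.19 (adjusted p = 0.0377, limma). Signals were floored at each array's lowest probe well above background. On the dim array that probe was at 6.48 beside a scaling percentile of 60.0, against 11.2 and 227 on normal replicate 1. After scaling, 3 signals at the dim array's floor would already sum to more than the highest normal liver. The place of the dim array above normal liver therefore does not show a rise. Of the 4 leukocyte markers tested, 2 fell at 24 hours after 2/3PH, beside the 16.7% of all tested miRNAs that passed. They were miR-142-3p, by 1.05, and miR-150, by 0.58 (adjusted p = 0.0126 and 0.0138, limma). At 36 hours 1 of the 4 fell, miR-150 by 0.74 (adjusted p = 0.00246, limma), beside 18.8% of all tested miRNAs. Their summed scaled signal was 209.5 to 256.5 in normal liver and 151.2 to 188.3 in 2/3PH 24H. In 2/3PH 36H it was 187.1 to 197.9, so both groups lay below normal liver. The share of all miRNAs that lay apart from normal liver at these times is not given here either. miR-142-5p was detected on 0 arrays. The part of these cells in the changes of both lists described here, and in the levels of the pair, was not tested.

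**Figure D5:**
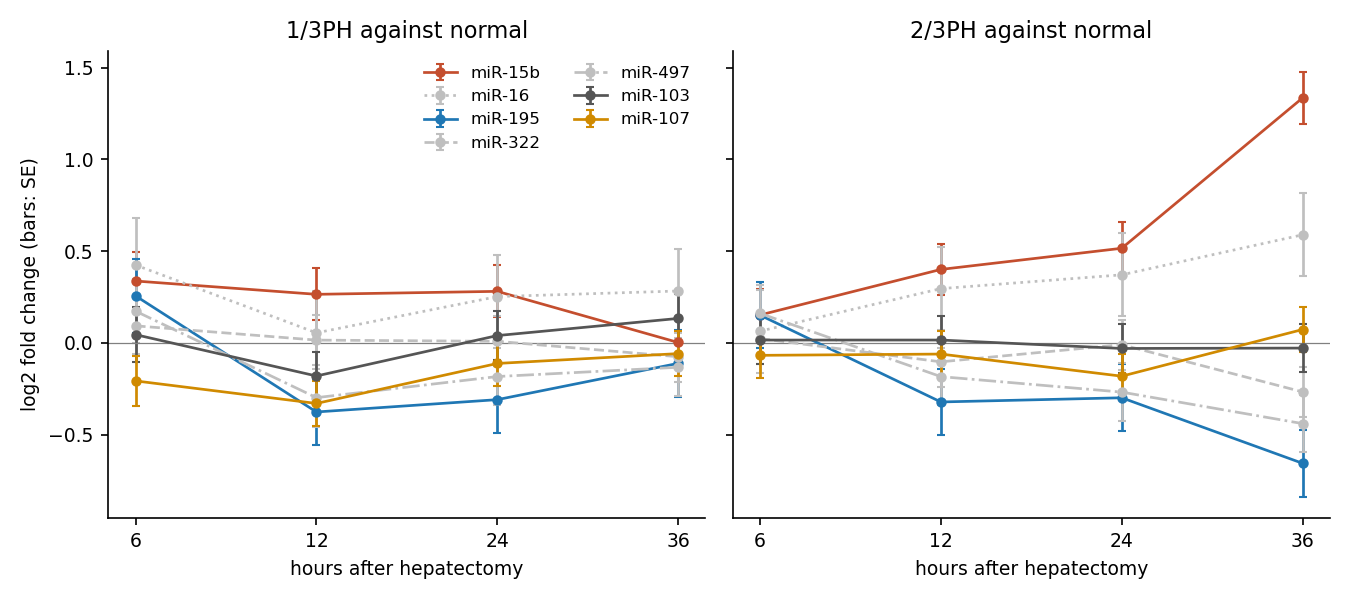
Log2 fold change against normal liver (vertical axis, bars SE) by time, with 1/3PH on the left and 2/3PH on the right, for the 7 tested miRNAs that share the letters AGCAGC near their 5′ end. miR-15b (red) reaches 1.34 and miR-195 (blue) -0.66 at 36 hours after 2/3PH, while miR-103 (dark grey) and miR-107 (orange) stay between -0.33 and 0.13 throughout.

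A second list held 16 miRNAs known for roles in lipid, glucose or insulin metabolism, the pair included. All 16 were on the array and 12 were tested. miR-370, miR-375 and miR-802 were detected on 0 arrays, and miR-33, which lies in a sterol regulatory gene, on 2. Of the 12, 6 differed over the 9 groups by the F test, where 29.9% of all miRNAs did: miR-34a, miR-27a, miR-29b, miR-29c, miR-26a and miR-378. At 12 hours after 1/3PH, where 4.17% of all tested miRNAs passed, 3 of 12 fell, namely miR-29b by 0.97, miR-29c by 1.03 and miR-378 by 0.90 on the log2 scale (adjusted p = 0.0117, 0.0117 and 0.0333, limma). The dim array is in that group. Without it miR-29b was at -0.86 and miR-378 at -1.03 (adjusted p = 0.0377 for both, limma), miR-29c was at -0.69 and no longer passed (adjusted p = 0.0542, limma), and miR-34a passed at 0.86 (adjusted p = 0.0377, limma). At 12 hours after 2/3PH, where 6.94% of all tested miRNAs passed, 2 of 12 fell, miR-29b by 1.01 and miR-29c by 0.89 (adjusted p = 0.0150 and 0.0284, limma). With the dim array left out these 2 also passed at 6 hours after 2/3PH, at -0.90 and -0.69 (adjusted p = 0.0352 for both, limma), where 3.47% of all tested miRNAs did, and miR-27a passed at 24 hours after 2/3PH, at 0.33 (adjusted p = 0.0496, limma). miR-34a, a target of p53, was the 1 member of the list that rose at 24 hours after 1/3PH, by 0.94 (adjusted p = 0.0467, limma), where 0.694% of all tested miRNAs passed, and at 24 hours after 2/3PH, by 1.24 (adjusted p = 0.000998, limma), when miR-26a and miR-378 fell. These 3 of 12 stand beside 16.7% of all tested miRNAs. At 36 hours after 2/3PH, where 18.8% passed, 3 of 12 passed again, and miR-34a rose by 1.85 (adjusted p = 2.38e-06, limma). At the same time miR-26a fell by 0.64 and miR-378, which lies in the gene of the coactivator PGC-1beta, fell by 0.88 (adjusted p = 0.000404 and 0.0114, limma). miR-103 and miR-107 were not among the members of this list that passed in any comparison. The median log2 difference of the 12 at 36 hours after 2/3PH was -0.084, beside 0.070 over all 144 miRNAs.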

How the data were processed

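Scanner files of 26 arrays were used. The authors deposited a spot intensity for each probe, background-subtracted and detrended by Agilent Feature Extraction 10.7.3.1 and not normalized between arrays. Their deposited table of log2 values, with 699 features, served as an alternative, and its 104 largest values are identical in all columns. Its normalization is not given in the sources used here.

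Spots marked as outliers were dropped, except where that left a probe with none, and the signal of a miRNA was the sum of its probes' mean spots. Arrays were scaled to the 75th percentile of the 109 probes that were above background throughout, set to 225.07, the geometric mean of these percentiles. Signals were floored at the lowest probe well above background, and log2 was taken. limma 3.58.1 (R 4.3.3; lmFit, eBayes) fitted 9 groups over the 144 miRNAs that some group had detected on all its arrays, with Benjamini-Hochberg adjustment within each contrast. Single values were tested by permuting arrays (differences two-sided, F ratios upper tail; Python 3.11.15, numpy 2.4.6), adjusted over 5 tests. Rats are the replicates, and the number of arrays limits the precision. limma's fit and the exact test between the operations were tested on simulated data.

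The members, lists and tests were chosen with earlier results of these data known. Named were the pair, the 5 miRNAs most correlated with each member, and the members of both lists that passed the test. Alternatives were other scalings, normexp with an offset of 50, the total gene signal, the deposited values, single probes, detection filters, slide or scan day as a block, separate fits per comparison, a trended prior, and leaving out each array.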

Additional observations from a re-analysis of the deposited data

How the results depend on the processing

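The 33 results were recomputed under 437 combinations with a processing alternative and 858 with 1 array left out. Direction and side of the threshold stayed the same in 351 and 824 of them, the sign turned in 80 and 29, and a result newly passed in 6 and 5. The cause of the turned signs was not tested. Slide as a fixed block could not be fitted for comparisons with 1/3PH 36H or 2/3PH 24H, for the interaction or for the F test over groups. No paired analysis was possible because the replicate numbers do not tie rats of different groups. Signal over background limits the dimmer miR-103 probe, above background on 204 of 260 spots.

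The values with a turned sign follow, as log2 differences, against normal liver unless another group is named. Scaling to the 75th percentile over all probes gave miR-103 -0.44 (1/3PH 36H), -0.070 (2/3PH 6H), -0.30 (2/3PH 12H), 0.32 (2/3PH over 1/3PH at 36H) and 1.62 (the interaction), and miR-107 0.98 (1/3PH 6H), -0.014 (2/3PH 36H), -1.13 (2/3PH over 1/3PH at 6H), 1.75 (the interaction) and -0.0026 (2/3PH over 1/3PH at all times). The brighter probe alone gave miR-107 0.019 (the interaction). The deposited log2 values gave miR-103 -0.14 (1/3PH 6H), 0.13 (2/3PH 24H), 0.020 (2/3PH 36H), 0.28 (2/3PH over 1/3PH at 6H), 0.047 (2/3PH over 1/3PH at 24H), 0.12 (2/3PH over 1/3PH at all times) and 0.080 (any PH against normal), and miR-107 0.058 (1/3PH 24H), 0.040 (1/3PH 36H), 0.11 (2/3PH 12H) and 0.058 (2/3PH 24H). The dimmer probe alone gave miR-103 -0.049 (1/3PH 6H), 0.19 (1/3PH 12H), 0.11 (2/3PH over 1/3PH at 6H) and -0.17 (2/3PH over 1/3PH at 12H). That probe's signal ran from 2.5 to 20.8 before scaling. Floors were 6.48 on the dim array and 19.4 on replicate 2 of 2/3PH 6H. On both arrays the probe lay below the floor, so differences that use these arrays hold the floor and not its measured signal. No scaling gave miR-103 -0.16 (2/3PH 6H), -0.25 (2/3PH 12H) and 0.0075 (2/3PH over 1/3PH at all times), and miR-107 -0.082 (2/3PH 36H), -0.039 (2/3PH over 1/3PH at 6H) and 0.041 (the interaction). Normexp background correction gave miR-103 0.33 (1/3PH 12H), -0.0060 (1/3PH 24H), 0.047 (2/3PH 24H), 0.42 (2/3PH 36H), -0.25 (2/3PH over 1/3PH at 12H), 0.053 (2/3PH over 1/3PH at 24H), 0.31 (2/3PH over 1/3PH at 36H), 0.50 (the interaction) and 0.22 (any PH against normal), and miR-107 0.14 (1/3PH 12H), 0.0003 (1/3PH 36H), 0.21 (2/3PH 6H), 0.015 (2/3PH 12H), -0.12 (2/3PH over 1/3PH at 12H), 0.075 (2/3PH over 1/3PH at 24H) and 0.068 (any PH against normal). Quantile normalization gave miR-103 0.11 (2/3PH 24H), 0.068 (2/3PH over 1/3PH at 6H), 0.045 (2/3PH over 1/3PH at 24H), 0.040 (2/3PH over 1/3PH at all times) and 0.080 (any PH against normal), and miR-107 0.057 (1/3PH 24H), 0.041 (1/3PH 36H), 0.11 (2/3PH 12H), 0.057 (2/3PH 24H) and 0.0001 (any PH against normal). Scan day as a fixed block gave miR-103 -0.094 (1/3PH 6H), -0.046 (1/3PH 24H), -0.0060 (1/3PH 36H), -0.071 (2/3PH 6H), -0.070 (2/3PH 12H), 0.059 (2/3PH 36H), 0.024 (2/3PH over 1/3PH at 6H), 0.065 (2/3PH over 1/3PH at 36H) and 0.041 (the interaction), and miR-107 0.14 (the interaction). Slide as a fixed block gave miR-103 -0.10 (1/3PH 6H), -0.0058 (1/3PH 24H), -0.066 (2/3PH 6H), -0.030 (2/3PH 12H), 0.029 (2/3PH 36H) and 0.034 (2/3PH over 1/3PH at 6H). Slide as a random block gave miR-103 -0.013 (1/3PH 6H), -0.010 (2/3PH 6H) and 0.0027 (2/3PH over 1/3PH at 6H). The software's total gene signal gave miR-103 -0.017 (2/3PH 6H) and -0.017 (2/3PH 12H), and miR-107 0.024 (the interaction).

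New passes were those of scaling to the 75th percentile over all probes (miR-103 in 2/3PH over 1/3PH at 6H, -1.30, adjusted p = 0.0446 in limma, and F values of 2.64 for miR-103 and 2.65 for miR-107), those of miR-107 over all times with quantile normalization (0.14) and the deposited log2 values (0.21), and the F ratio of the pair's difference with normexp (4.19). The share of all miRNAs that passed with scaling over all probes is not given here, so those passes do not single out the pair.

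With 1 array left out, miR-103 against normal ranged from -0.0046 to 0.12 (1/3PH 6H), -0.30 to 0.047 (1/3PH 12H), -0.0096 to 0.11 (1/3PH 24H), -0.034 to 0.088 (2/3PH 6H), -0.034 to 0.088 (2/3PH 12H), -0.080 to 0.042 (2/3PH 24H) and -0.078 to 0.044 (2/3PH 36H). miR-107 ranged from -0.44 to -0.17 (1/3PH 12H), -0.15 to 0.0020 (1/3PH 36H) and -0.020 to 0.13 (2/3PH 36H), with -0.064 to 0.065 for its interaction. Between the operations miR-103 ranged from -0.031 to 0.32 at 12H and from -0.073 to 0.014 over all times, and miR-107 from 0.079 to 0.15 over all times. Any PH against normal ranged from -0.050 to 0.072 for miR-103 and from -0.21 to -0.054 for miR-107, and the F ratio of the pair's difference from 2.40 to 4.29. Without replicate 2 of 1/3PH 12H miR-103 in that group was at 0.047, against -0.18 with it.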
